A study of Mus musculus with 2 samples.

Results

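The genes for 5 proteins of mechanical and calcium sensing, Piezo1, Piezo2, Trpv4, Pkd1 and Pkd2, were followed across the cell types of mouse alveolar bone, the tooth-bearing bone of the jaw. The members were found by their gene symbol, and all 5 were present among 56893 symbols in the count tables. The tissue came from C57BL/6J mice of 6 to 8 weeks in a study of orthodontic tooth movement, in which a nickel-titanium coil spring pulled the upper first molar with 25 g in 1 group and was fitted without force in the control group. On day 7, bone lying up to 1 mm from the socket was collected, with 6 mice pooled per group. No label ties either of the 2 libraries to force or control, so they are called library 1 and library 2, each is described on its own, and force was not compared with control.

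Piezo1 and Piezo2 are large channels of the plasma membrane that open when the membrane is stretched or indented and let calcium and other cations in. Trpv4 is a calcium channel of the transient receptor potential family that opens on osmotic swelling, warmth and lipid messengers, and it is known in endothelium, bone cells and cartilage. Pkd1 encodes polycystin-1, a receptor-like protein, and Pkd2 encodes polycystin-2, a cation channel. The polycystins form a complex in the primary cilium and the endoplasmic reticulum, and loss of either causes polycystic kidney disease. Piezo1, Pkd1 and Pkd2 in cells of the osteoblast lineage are also known to take part in bone mass control in mice.

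Library 1 gave 9501 cells with a median of 3202 unique molecular identifiers (UMIs, each 1 captured transcript) and library 2 gave 11996 cells with a median of 4301. Clustering without the 5 genes, followed by naming from marker genes, gave 20 cell classes, of which 17 took a name and 3 are called by their leading genes. A name means only that the cells resemble that type by its markers. A level is the UMIs of a gene in a class divided by all UMIs of the class in that library and stated per 1000000 of them (CPM), and its range is the exact 95% Poisson interval. Each library is 1 pool without replicates, so no statistical test was made between classes or libraries and all intervals cover counting error only. A lower level can mean less RNA per cell or fewer expressing cells in the class. The libraries shared 70 cell barcodes.

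Of the 5 genes, 2 peaked in the same class in both libraries, namely Piezo2 and Trpv4 in endothelial-like cells. Among 13913 measured genes, those reaching 20 UMIs or more in a class of each library, 57.7% peaked in the same class in both and 3.77% did so in endothelial-like cells. Piezo2 also exceeded every other class at least 2-fold in each library, as did 12.3% of measured genes. Piezo1, Pkd1 and Pkd2 were spread over several connective tissue, bone and vascular classes. In the main analysis their highest class differed between the libraries, and for each of them this changed with the settings.

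**Figure D1:**
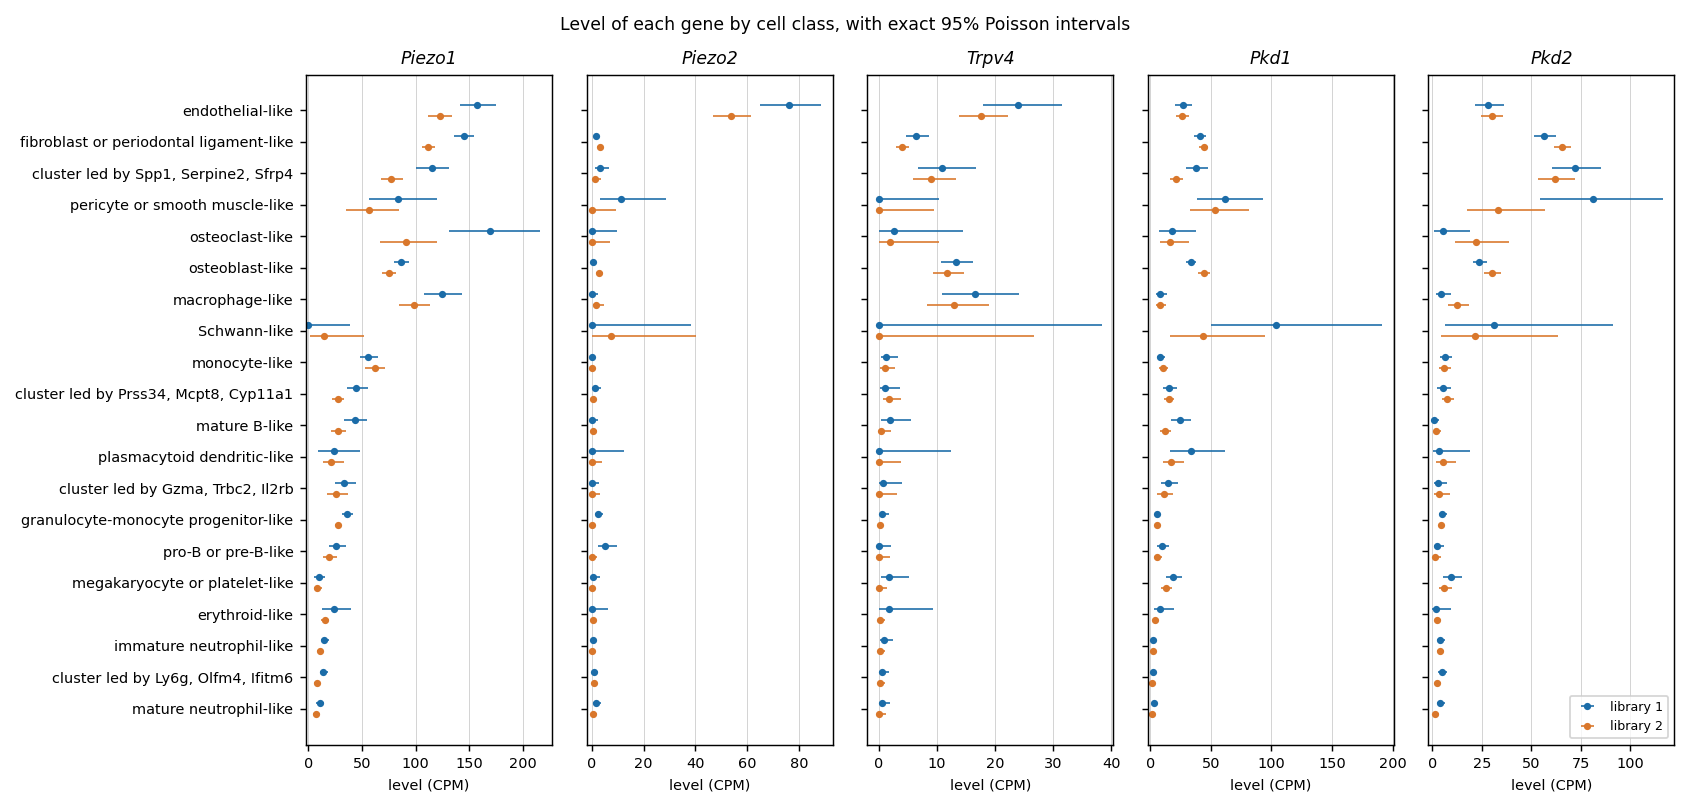
Level of each gene (horizontal axis, CPM, a separate linear scale per gene) in the 20 cell classes, with blue points for library 1, orange points for library 2 and bars for exact 95% Poisson intervals. Piezo2 stands at 76.1 and 53.8 CPM in endothelial-like cells and near 0 in most classes, while the other genes are spread over connective tissue, bone, vascular and macrophage-like classes.

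The sequences just before the transcription starts of Piezo1, Trpv4, Pkd1 and Pkd2 are shown because Piezo1 with Trpv4 and Pkd1 with Pkd2 were the pairs of members whose levels were most alike across classes. They are the 250 bases upstream of the start in RefSeq on GRCm38.p6, written from 5′ to 3′ along the gene, at chr8:122551330-122551579 (minus strand) for Piezo1, chr5:114658422-114658671 (minus) for Trpv4, chr17:24549700-24549949 (plus) for Pkd1 and chr5:104459207-104459456 (plus) for Pkd2. Capitals mark the TATA box letters TATAAA and the GC box letters GGGCGG, with the GC box on either strand, where it reads CCGCCC.
Piezo1: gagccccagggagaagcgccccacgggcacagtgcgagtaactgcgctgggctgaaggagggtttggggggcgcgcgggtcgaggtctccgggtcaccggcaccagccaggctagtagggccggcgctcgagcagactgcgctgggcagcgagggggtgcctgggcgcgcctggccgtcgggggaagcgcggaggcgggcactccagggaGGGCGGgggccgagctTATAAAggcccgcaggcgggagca
Trpv4: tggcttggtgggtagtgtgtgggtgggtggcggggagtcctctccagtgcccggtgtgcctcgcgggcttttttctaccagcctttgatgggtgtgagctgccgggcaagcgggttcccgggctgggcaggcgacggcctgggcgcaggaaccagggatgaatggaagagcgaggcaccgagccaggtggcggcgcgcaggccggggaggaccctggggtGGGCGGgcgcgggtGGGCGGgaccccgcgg
Pkd1: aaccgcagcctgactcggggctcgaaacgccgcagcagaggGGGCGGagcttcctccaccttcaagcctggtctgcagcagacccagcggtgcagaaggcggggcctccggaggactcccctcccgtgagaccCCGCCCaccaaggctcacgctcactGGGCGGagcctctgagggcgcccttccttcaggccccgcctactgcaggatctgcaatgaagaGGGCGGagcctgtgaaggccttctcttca
Pkd2: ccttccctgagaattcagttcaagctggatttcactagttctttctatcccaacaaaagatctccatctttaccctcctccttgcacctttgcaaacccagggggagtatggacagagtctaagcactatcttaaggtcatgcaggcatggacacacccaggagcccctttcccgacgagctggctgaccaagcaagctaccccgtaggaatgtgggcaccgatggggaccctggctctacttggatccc
Piezo1 held 1 TATAAA, 24 bases before the start, and 1 GGGCGG. Trpv4 held 2 GGGCGG and Pkd1 held 4, with no TATAAA in either. Pkd2 held none of either. Over 32851 mouse promoters of the same length, 12.4% held TATAAA and 32.7% held GGGCGG on either strand. The share of G and C was 74.0% in Piezo1, 72.0% in Trpv4, 67.2% in Pkd1 and 52.8% in Pkd2, against a median of 52.4% over all promoters. These matches are a description of the letters only.

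Piezo2, best known as the touch and stretch channel of sensory neurons, was largely an endothelial transcript in this tissue. Endothelial-like cells, the cells that line blood vessels, had 165 Piezo2 UMIs in library 1 and 214 in library 2. Their level was 76.1 CPM (64.9 to 88.6) in library 1 and 53.8 CPM (46.8 to 61.5) in library 2. They held 73.3% of all Piezo2 UMIs of called cells in each library, while they made up 3.17% and 5.01% of the cells. The level was 6.80 times that of the next class in library 1, which were pericyte- or smooth muscle-like cells (called mural-like here) with 4 UMIs (interval 2.61 to 25.3). In library 2 it was 7.44 times that of Schwann-like cells, which had 1 UMI (1.32 to 295).

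Outside endothelium Piezo2 was low, and in several classes it was at the limit of these counts. Fibroblast- or periodontal ligament-like cells, the fibre-forming cells of the gum and tooth socket, had 10 Piezo2 UMIs in 8 cells of library 1 and 39 in 28 cells of library 2, or 1.46 and 2.98 CPM. No Piezo2 UMI was found in monocyte-like, osteoclast-like or plasmacytoid dendritic-like cells, or in the cluster led by Gzma, Trbc2 and Il2rb, in either library. With a count of 3 UMIs as the floor for monocyte-like cells, the endothelial-like level was 79.2-fold higher in library 1 and 55.5-fold higher in library 2. These folds leave out the counting error of endothelial-like cells. The exact interval of the ratio in library 1 began at 63.7. In the 44 and 32 osteoclast-like cells, a count of 0 allows a share of up to 6.82% and 9.38% of cells with a UMI, so a low level there was not detectable at this depth. Osteoblast-like cells had 4 and 18 Piezo2 UMIs, and 16 of the 18 in library 2 came from a single cell. Likewise, 8 of 12 UMIs in granulocyte-monocyte progenitor-like cells and 7 of 9 in pro-B- or pre-B-like cells of library 1 came from 1 cell each. Endothelial-like cells spread theirs over 80 and 136 cells, and the highest count in a cell was 11 in library 1 and 7 in library 2.

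Piezo2 was detected in 26.6% of endothelial-like cells in library 1 and 22.6% in library 2. The shares were 8.59% and 6.08% after each cell was thinned to 1000 UMIs. In mature neutrophil-like cells, taken as a class that should lack the channel, 0.341% and 0.0961% of cells had a Piezo2 UMI. The median depth was 4962 and 4497 UMIs in endothelial-like cells, against 1945 and 2510 in mature neutrophil-like cells. Barcodes under 100 UMIs, which hold free RNA, carried Piezo2 at 7.72 and 5.78 CPM. All 8 endothelial markers were raised in this class, and their summed level was 5717 and 6023 CPM. Markers of blood-forming cells were also present there, among them immature neutrophil markers at 1214 and 933 CPM, and their part in these levels was not tested.

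**Figure D2:**
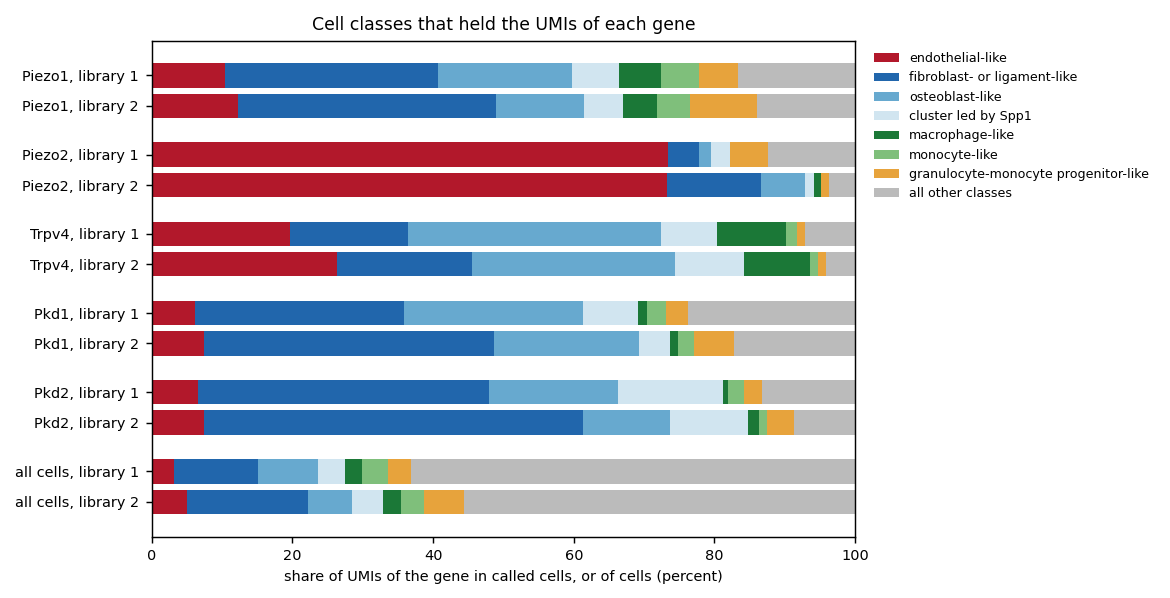
Share of the UMIs of each gene in called cells (horizontal axis, percent) held by 7 named cell classes and by all other classes, with 1 bar per gene and library, and the share of cells at the bottom. Endothelial-like cells (red) hold 73.3% of Piezo2 UMIs in both libraries, while stromal and bone-forming classes (blue) hold most UMIs of Piezo1, Trpv4, Pkd1 and Pkd2.

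Between sub-clusters of endothelium Piezo2 and Trpv4 had opposite patterns. Endothelial-like cells fell into 4 sub-clusters when clustered again without the 5 genes, and 1 of them, with 25 cells in library 1 and 45 in library 2, was arterial-like. It carried the arterial markers Sema3g at 537 and 423 CPM, Gja4 at 158 and 455 CPM and Bmx at 111 and 229 CPM. The venous and inflamed-vessel marker Selp (P-selectin) was at 10.5 and 45.2 CPM there and between 2700.2 and 12866.8 CPM in the other sub-clusters. Of the 7 sinusoidal or venous markers read, 4 were lower there than in each of the other sub-clusters in both libraries, namely Selp, Sele, Nr2f2 and Ackr1. Vcam1 of the same list was not, at 2890 and 988 CPM in the arterial-like sub-cluster, against 867 to 2346 CPM in the others in library 1 and 657 to 1461 CPM in library 2.

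Trpv4 was higher in arterial-like cells than in the other endothelial-like cells in both libraries. In library 1 it had 13 UMIs and 68.4 CPM in arterial-like cells, against 39 UMIs and 19.7 CPM in the other endothelial-like cells, a ratio of 3.47 (1.70 to 6.64). In library 2 it had 23 UMIs and 74.3 CPM in arterial-like cells, against 47 UMIs and 12.8 CPM in the others, a ratio of 5.80 (3.36 to 9.74). A Trpv4 UMI was found in 24.0% and 28.9% of arterial-like cells, against 12.0% and 7.01% of the others. The median depth was 5330 and 2653 UMIs in arterial-like cells, against 4937 and 4637 in the others.

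Piezo2 was lower in arterial-like cells. It had 3 UMIs and 15.8 CPM in arterial-like cells of library 1, against 162 UMIs and 81.9 CPM in the other endothelial-like cells, a ratio of 0.193 (0.0394 to 0.574). In library 2 it had 3 UMIs and 9.69 CPM in arterial-like cells, against 211 UMIs and 57.5 CPM in the others, a ratio of 0.168 (0.0344 to 0.499). The highest Piezo2 level among the sub-clusters was in the one led by Ccn2, Cyp1b1 and Cyp1a1, at 122 CPM (95.7 to 153) in library 1 and 69.9 CPM (57.7 to 83.9) in library 2. When arterial-like cells were instead taken as those with a UMI of at least 2 of the 7 arterial markers, the Piezo2 ratio was 0.913 (0.664 to 1.25) and 0.680 (0.505 to 0.909), and the Trpv4 ratio was 1.63 (0.904 to 3.01) and 2.01 (1.22 to 3.37). In library 1 both intervals then held 1. That choice takes deep cells, with a median of 9181 and 10450 UMIs.

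Piezo1 did not show this split. Its ratio of arterial-like to other endothelial-like cells was 1.00 (0.666 to 1.46) in library 1 and 0.861 (0.585 to 1.23) in library 2. Pkd2 had ratios of 1.35 and 0.969, with intervals that held 1. The Pkd1 ratio was 3.01 (1.49 to 5.67) in library 1 and 0.725 (0.260 to 1.64) in library 2. With arterial-like cells chosen by 2 markers the Pkd1 ratio turned to 0.827 (0.474 to 1.43) in library 1 and was 0.596 (0.380 to 0.916) in library 2. Nos3, the endothelial nitric oxide synthase that responds to flow, was at 326 and 158 CPM in arterial-like cells, against 111 and 72.5 CPM in the other endothelial-like cells. By the choice from 2 markers its ratio was 1.18 (0.929 to 1.51) and 1.02 (0.809 to 1.28), within counting error.

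**Figure D3:**
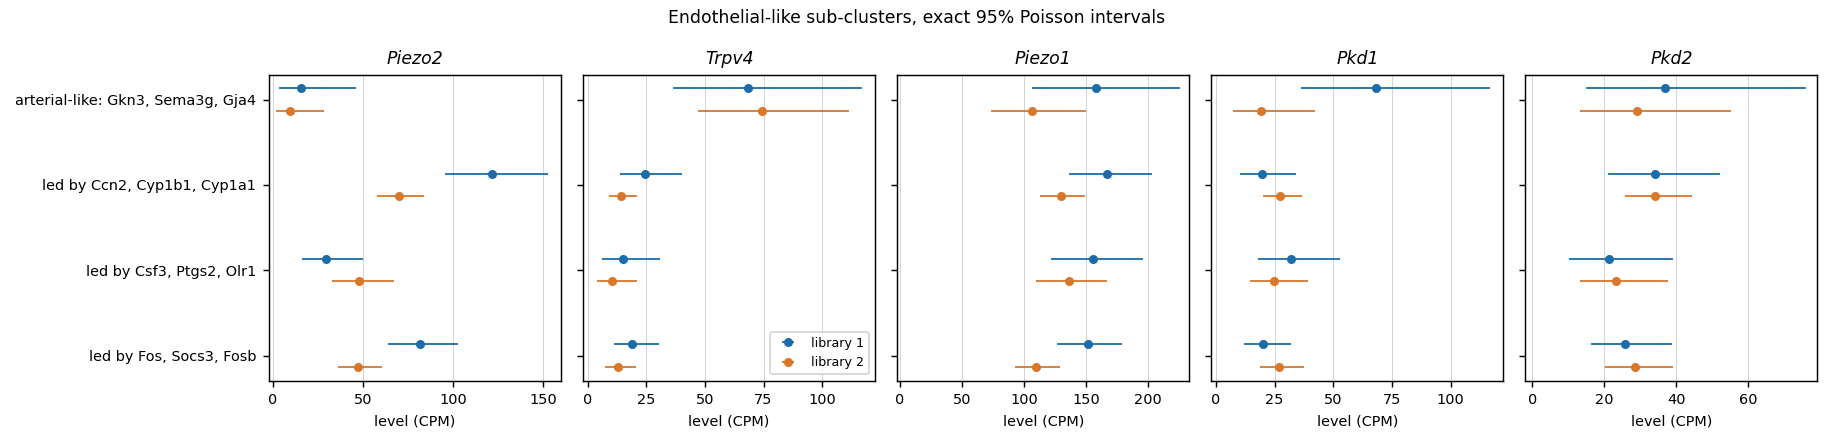
Level of each gene (horizontal axis, CPM, a separate scale per gene) in the 4 sub-clusters of endothelial-like cells, the arterial-like one at the top, with blue for library 1, orange for library 2 and bars for exact 95% Poisson intervals. In arterial-like cells Trpv4 is at 68.4 and 74.3 CPM and Piezo2 at 15.8 and 9.69 CPM, and Piezo1 is close to level across the 4.

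Trpv4 over the whole tissue was found in endothelial-like, macrophage-like and bone-forming cells. Endothelial-like cells had 24.0 CPM (17.9 to 31.5) in library 1 and 17.6 CPM (13.7 to 22.2) in library 2. Macrophage-like cells had 16.5 CPM (10.8 to 24.2) and 12.9 CPM (8.32 to 19.0), and osteoblast-like cells had 13.2 CPM (10.7 to 16.1) and 11.7 CPM (9.24 to 14.6). The lead of endothelial-like over macrophage-like cells was within counting error, at 1.45 (0.891 to 2.42) and 1.37 (0.856 to 2.26). Osteoblast-like cells, with 814 and 752 cells, held the largest share of Trpv4 UMIs of any class, 36.0% and 28.9%.

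The cluster led by Spp1, Serpine2 and Sfrp4, which took the name bone-lining-like with 5 of 6 markers raised and is called by its leading genes here, had Trpv4 at 10.9 and 9.03 CPM. Fibroblast- or ligament-like cells had 6.43 and 3.90 CPM, close to the level in free RNA of 5.72 CPM (4.53 to 7.11) and 3.56 CPM (2.67 to 4.66). Monocyte-like cells had 4 and 3 UMIs, at 1.28 and 0.969 CPM. Mural-like, Schwann-like, plasmacytoid dendritic-like and pro-B- or pre-B-like cells had no Trpv4 UMI in either library. For the 84 and 121 mural-like cells the upper interval bound was 10.3 and 9.40 CPM. Osteoclast-like cells had 1 UMI in each library.

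Piezo1 was spread over vascular, connective tissue, bone and macrophage-like classes. Its levels were 157 CPM (141 to 175) and 122 CPM (112 to 134) in endothelial-like cells, and 145 CPM (136 to 154) and 112 CPM (106 to 118) in fibroblast- or ligament-like cells. Macrophage-like cells had 124 CPM (108 to 143) and 98.3 CPM (84.8 to 113). Osteoclast-like cells had 65 and 49 UMIs, or 169.6 CPM (131 to 216) and 90.7 CPM (67.1 to 120). Osteoclast-like cells came first in library 1, and in library 2 endothelial-, fibroblast- or ligament- and macrophage-like cells stood above them. Of the 49 UMIs in library 2, 15 came from 1 cell. Under 14 other settings osteoclast-like cells came first in library 1 in 4, of which 1 only repeated the main analysis, and endothelial-like cells in 5. In the remaining settings a cluster led by Apod and Igf1, or the fibroblast- or ligament-like class, came first in both libraries. The osteoclast-like level in library 2 lay between 39.7 and 106 CPM in the 9 settings that kept the class. Endothelial-like cells did not differ beyond counting error from fibroblast- or ligament-like cells in either library, with ratios of 1.09 (0.958 to 1.23) and 1.10 (0.987 to 1.22).

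The fibroblast- or ligament-like class joined 2 clusters in which Piezo1 differed. The cluster led by Apod, Igf1 and Angptl1 had 193 CPM (180.0 to 206) and 144 CPM (136 to 153), against 62.8 CPM (53.4 to 73.4) and 54.4 CPM (47.9 to 61.4) in the cluster led by Sema3c, Spon2 and Aspn. The ratio of the first to the second cluster was 3.07 (2.59 to 3.66) and 2.65 (2.32 to 3.05). Taken alone, the cluster led by Apod stood above every ranked class in both libraries. Its interval overlapped that of osteoclast-like cells in library 1. Pkd1 had ratios of 1.38 (1.06 to 1.80) and 1.42 (1.18 to 1.71). The Pkd2 ratio was 1.73 (1.37 to 2.20) and 1.15 (0.992 to 1.33), and Trpv4 ratios of 0.773 and 1.24 had intervals that held 1. Piezo2 had 10 UMIs in the cluster led by Apod and 0 in the one led by Sema3c in library 1. In library 2 it had 37 in the cluster led by Apod and 2 in the one led by Sema3c, a ratio of 10.5 (2.70 to 89.6).

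In bone-forming cells Piezo1 was at 86.4 CPM (79.7 to 93.4) and 75.1 CPM (68.6 to 82.0) in osteoblast-like cells, and at 115 CPM (101 to 131) and 77.1 CPM (67.3 to 88.0) in the cluster led by Spp1. Monocyte-like cells had 56.1 and 61.7 CPM. The mature and immature neutrophil-like classes and the cluster led by Ly6g, Olfm4 and Ifitm6 were low, from 10.7 to 14.95 CPM in library 1 and from 6.96 to 10.6 CPM in library 2, and megakaryocyte- or platelet-like cells were at 9.88 and 8.58 CPM. Schwann-like cells had 0 and 2 UMIs. Free RNA carried Piezo1 at 74.2 and 65.2 CPM. That was above its level in those 4 classes, in monocyte-like cells and in the fibroblast cluster led by Sema3c. In library 1 it was above every class ranked below mural-like cells, which had 83.9 CPM. Osteoblast-like cells lay not far above free RNA, and endothelial-like cells lay further above it.

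A Piezo1 UMI was found in 54.2% and 44.4% of endothelial-like cells, against 2.16% and 1.83% of mature neutrophil-like cells. After thinning to 1000 UMIs the shares were 13.4% and 10.5% in endothelial-like cells, against 1.12% and 0.987% in mature neutrophil-like cells. Granulocyte-monocyte progenitor-like cells had a Piezo1 UMI in 37.6% and 33.8% of cells as counted but in 3.497% and 2.44% after thinning, with a median depth of 14601 and 18764 UMIs. The exons of Piezo1 overlap those of Ctu2, a gene on the opposite strand, over 1490 bases in the GENCODE M21 annotation. Whether counting used the strand is not given in the sources used here, so some Piezo1 counts are uncertain. Ctu2 had its highest level in mature B-like cells in library 1 and in the cluster led by Gzma, Trbc2 and Il2rb in library 2.

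**Figure D4:**
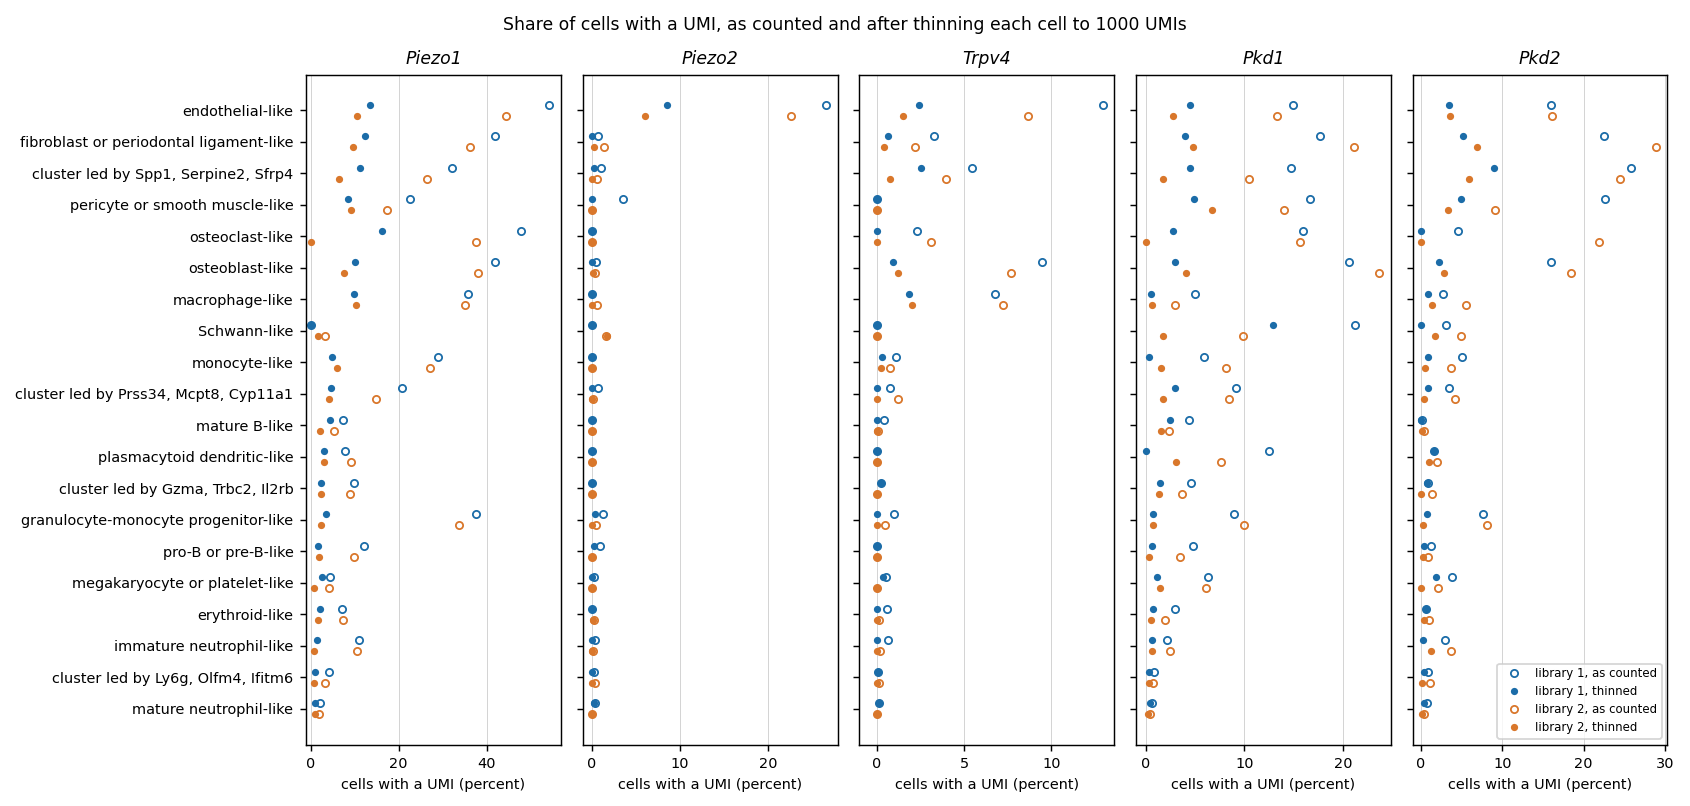
Share of cells with at least 1 UMI of each gene (horizontal axis, percent, a separate scale per gene) in the 20 cell classes, with open circles for cells as counted, filled circles after thinning each cell to 1000 UMIs, blue for library 1 and orange for library 2. Thinning lowers all high shares, and that of Piezo1 in granulocyte-monocyte progenitor-like cells drops to 3.497% and 2.44%.

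Pkd1 was high in Schwann-, mural-, fibroblast- or ligament- and osteoblast-like classes and lowest in neutrophil classes. Mural-like cells, which wrap small vessels, had 22 and 21 UMIs, or 61.5 CPM (38.5 to 93.1) and 53.5 CPM (33.1 to 81.8). Fibroblast- or ligament-like cells had 41.1 CPM (36.4 to 46.2) and 44.0 CPM (40.5 to 47.8). Osteoblast-like cells had 33.5 CPM (29.4 to 38.0) and 44.1 CPM (39.2 to 49.5). The cluster led by Spp1, with 73 and 61 UMIs, stood above osteoblast-like cells in library 1 and below them in library 2. Schwann-like cells, the glia of nerves, stood first in library 1 with 10 UMIs and 104 CPM (49.9 to 192) and had 6 UMIs and 43.4 CPM (15.9 to 94.5) in library 2. Mural-like cells did not differ from the class next below beyond counting error, with ratios of 1.497 (0.923 to 2.31) and 1.21 (0.740 to 1.89).

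The lowest Pkd1 levels lay in the mature and immature neutrophil-like classes and in the cluster led by Ly6g, Olfm4 and Ifitm6, between 2.37 and 3.12 CPM in library 1 and between 1.33 and 2.27 CPM in library 2. Other blood cell classes were not all low, since plasmacytoid dendritic-like cells had 10 and 17 Pkd1 UMIs, or 33.6 and 17.5 CPM. Endothelial-like cells had 26.8 and 26.1 CPM, and free RNA had 21.2 and 16.7 CPM. The exons of Pkd1 overlap those of Tsc2, a growth regulator on the opposite strand, over 693 bases. Tsc2 was highest in pro-B- or pre-B-like cells in library 1 and in Schwann-like cells in library 2, so the Pkd1 count in Schwann-like cells is uncertain on 2 accounts, the small number of UMIs and the overlap.

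Pkd2 was highest in mural-like cells, the cluster led by Spp1 and fibroblast- or ligament-like cells. Fibroblast- or ligament-like cells had 56.6 CPM (51.1 to 62.5) and 65.7 CPM (61.3 to 70.2) and held 41.5% and 53.8% of Pkd2 UMIs, while they made up 11.9% and 17.2% of the cells. The cluster led by Spp1, Serpine2 and Sfrp4 had 72.1 CPM (60.6 to 85.2) and 62.2 CPM (53.4 to 72.0). Its level was 1.27 times that of fibroblast- or ligament-like cells in library 1 (1.04 to 1.55), while in library 2 fibroblast- or ligament-like cells had 1.06 times its level (0.898 to 1.25). Osteoblast-like cells had lower levels, 23.7 CPM (20.3 to 27.6) and 29.95 CPM (25.9 to 34.4). Mural-like cells had 81.1 CPM (54.3 to 116) in library 1 and 33.1 CPM (17.6 to 56.7) in library 2.

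Pkd2 was at 28.1 and 29.9 CPM in endothelial-like cells, 4.44 and 12.3 CPM in macrophage-like cells and 0.639 and 1.94 CPM in mature B-like cells. Free RNA carried Pkd2 at 21.2 CPM (18.9 to 23.8) and 19.97 CPM (17.8 to 22.4), not far below osteoblast- and endothelial-like cells. Mature B-like cells had Pkd1 at 24.3 and 12.0 CPM. Osteoclast-like cells had 2 and 12 Pkd2 UMIs, or 5.22 and 22.2 CPM. Across the 20 classes, log2 levels of Pkd1 and Pkd2 had a Pearson r of 0.640 in library 1 and 0.810 in library 2, a description of points that share a library and its free RNA.

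Because the polycystins work as a complex, cells with UMIs of both were counted. In fibroblast- or ligament-like cells, 64 of 200 cells with Pkd1 also had Pkd2 in library 1, or 32.0%, against 20.6% of the cells without Pkd1. In library 2 it was 165 of 434 cells with Pkd1, or 38.0%, against 26.4% of the cells without. After thinning to 1000 UMIs the shares were 9.09% and 11.2% among cells with Pkd1, against 4.99% and 6.69% among the rest, and they rest on 4 and 11 cells. In osteoblast-like cells the thinned shares were 4.35% and 6.67%, against 2.12% and 2.66%. In the cluster led by Spp1 they went the other way, at 6.25% and 0%, against 9.17% and 6.02%, from 1 and 0 cells. In fibroblast- or ligament-like cells with Piezo1, 27.9% and 35.4% had Pkd2 as counted, against 18.7% and 25.2% of the rest. Thinned, these were 4.35% and 8.21%, against 5.27% and 6.77%. In endothelial-like cells, 53 of 163 cells with Piezo1 also had Piezo2 in library 1, or 32.5%, against 19.6% of the rest, and thinned they were 12.8% and 7.94%, from 5 cells. In library 2, 73 of 267 had both, or 27.3%, against 18.9% of the rest. Thinned, these were 8.06% among cells with Piezo1 and 5.85% among the rest. Shares as counted move with the depth of a cell, and the thinned ones rest on few cells.

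No UMI of any of the 5 genes was seen in 24.6% and 34.4% of endothelial-like cells. The share with none was 39.7% in each library in fibroblast- or ligament-like cells and 40.0% and 41.0% in osteoblast-like cells. It was 96.2% and 97.4% in mature neutrophil-like cells. UMIs of all 5 genes were found in 3 cells of library 1, all endothelial-like, and in 2 cells of library 2, of which 1 was endothelial-like and 1 osteoblast-like.

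The stromal and bone-forming classes were clustered again without the 5 genes, which gave 9 sub-clusters, 7 of them with at least 30 cells in both libraries. Piezo1 ranged widely among these. It was highest in the sub-cluster led by Il1rl1, Rhou and Tfpi2, at 203 CPM (189 to 219) and 155 CPM (144 to 167). It was lowest in library 1 in the one led by Sema3c, Spon2 and Gm15398, at 63.8 CPM (54.9 to 73.7), and lowest in library 2 in the one led by Comp, Htra4 and Prss23, at 39.6 CPM (28.2 to 54.2). The osteoblast-like sub-cluster, led by Slc13a5, Bglap and Car3, had 85.7 and 69.3 CPM.

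In the osteoblast-like sub-cluster Pkd2 was lowest and Trpv4 was among the higher levels. Pkd2 was at 23.8 CPM (20.4 to 27.6) and 24.9 CPM (21.0 to 29.3), against 40.9 to 80.7 CPM in the other 6 sub-clusters in library 1 and 33.1 to 96.4 CPM in library 2. The next lowest in library 2, the one led by Myh11, had an interval of 17.6 to 56.7 CPM and did not differ from it beyond counting error. Trpv4 was at 13.6 CPM (11.0 to 16.6) and 12.6 CPM (9.89 to 15.9) there, against 6.22 and 2.11 CPM in the sub-cluster led by Il1rl1. The Comp-led sub-cluster had Trpv4 at 13.2 CPM (5.32 to 27.3) and 5.08 CPM (1.65 to 11.9), with intervals that overlapped those of the osteoblast-like one. The sub-cluster led by Spp1, Megf10 and Enpp1 had Trpv4 at 10.6 and 11.9 CPM and Pkd2 at 69.4 and 63.4 CPM. Pkd1 ranged from 20.8 to 59.8 CPM in library 1 and from 16.3 to 58.6 CPM in library 2, and the Comp-led sub-cluster was lowest in both.

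Piezo2 was not at 0 in all stroma. The sub-cluster led by Adipoq, Fmo2 and Mfap5, like the Cxcl12- and leptin receptor-rich stroma of bone marrow, had 7 and 23 Piezo2 UMIs in 71 and 308 cells, or 17.9 CPM (7.21 to 37.0) and 14.5 CPM (9.19 to 21.7). It also had Piezo1 at 169 and 118 CPM and Pkd2 at 79.5 and 96.4 CPM. The Piezo2 UMIs lay in 5 and 14 cells, and none of those cells had UMIs of 2 or more endothelial markers. The summed level of the 8 endothelial markers was 30.8 and 23.9 CPM in this sub-cluster, with 2 of the 8 at 0 in library 1 and none in library 2, against 5717 and 6023 CPM in endothelial-like cells. The mural-like sub-cluster, led by Myh11, Rgs5 and Nrarp, had 5 and 0 Piezo2 UMIs and endothelial markers at 206 and 153 CPM. It came from the second clustering, so its count differs from the 4 UMIs of the mural-like class in library 1. Of the 4 cells of this sub-cluster with a Piezo2 UMI in library 1, 1 had UMIs of 2 or more endothelial markers.

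**Figure D5:**
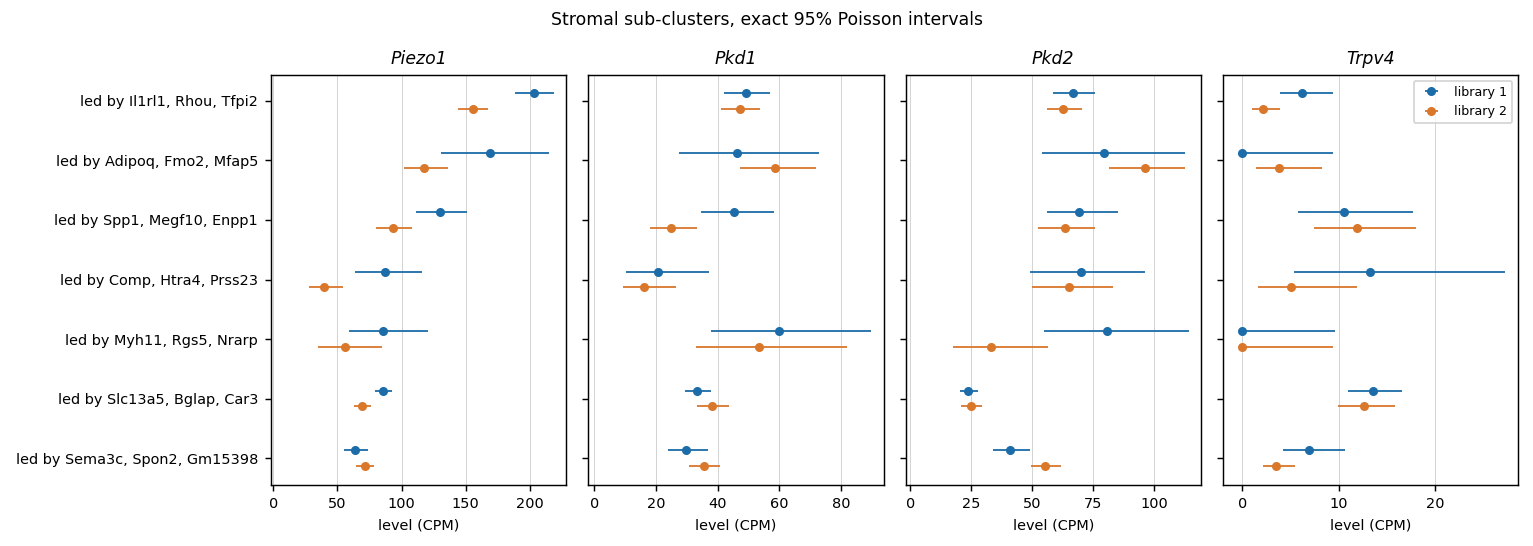
Level of Piezo1, Pkd1, Pkd2 and Trpv4 (horizontal axis, CPM, a separate scale per gene) in the 7 stromal and bone-forming sub-clusters with at least 30 cells in both libraries, ordered by Piezo1 in library 1, with blue for library 1, orange for library 2 and bars for exact 95% Poisson intervals. The osteoblast-like sub-cluster led by Slc13a5 has the lowest Pkd2, at 23.8 and 24.9 CPM, and Trpv4 at 13.6 and 12.6 CPM.

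For each member, the genes with the most alike levels across the 20 classes were found among 13913 measured genes, by the lower of the Pearson correlations of log2(CPM + 1) in the libraries. These correlations describe points that share a library and its depth. For Piezo2 they were Tead4, a transcription factor of the Hippo pathway, Sele (E-selectin), Ptprb, a phosphatase of vascular endothelium, Gpr182 and Meox1, with a lower r from 0.795 to 0.840. Sele and Ptprb are among the 10 leading genes of the endothelial-like cluster. For Piezo1 they included Myof (myoferlin, a membrane repair protein), Prdm1, the zinc transporter Slc39a14 and Elk3, from 0.786 to 0.810. For Trpv4 they were Apol9b, D330050G23Rik, Cd276, Fam83g and Gm826, from 0.791 to 0.818.

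The genes most like Pkd1 were Lzts2, the magnesium transporter Slc41a1, Dag1 (dystroglycan, a receptor for the matrix), the inositol transporter Slc5a3 and Cltb, a clathrin light chain, with a lower r from 0.873 to 0.890. Those most like Pkd2 included the splicing factor Rbfox2, the co-chaperone Bag3, the transcription factor Klf9 and Npdc1, from 0.878 to 0.883. Among the members, Piezo1 and Trpv4 had an r of 0.644 and 0.785, and Piezo1 and Piezo2 had 0.330 and 0.408.

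Related genes were read from 9 lists with 102 genes, of which 82 were measured. Of these, 48, or 58.5%, peaked in the same class in both libraries, and 11, or 13.4%, exceeded every other class at least 2-fold in each, against 57.7% and 12.3% of all measured genes. Nos3 was the 1 gene of the lists that shared both with Piezo2, at 129.6 and 79.2 CPM in endothelial-like cells. Of the 12 measured genes of the list of other mechanosensitive or osmosensitive channels, 8 peaked in the same class in both libraries and 2 passed the 2-fold limit. These were Gjc1, a gap junction protein, in mural-like cells at 322 and 303 CPM, and Tmc1, a channel of inner ear hair cells, in the cluster led by Spp1 at 85.6 and 56.6 CPM. Tmem63a, an osmosensitive channel, was highest in immature neutrophil-like cells at 82.6 and 56.5 CPM, and Tmem63b in Schwann-like cells with 9 and 5 UMIs.

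Of 10 measured TRP channels, the family of Trpv4, 5 peaked in the same class in both libraries and 4 passed the 2-fold limit. Trpm2 was at 193 and 149.5 CPM in mature neutrophil-like cells and Trpc6 at 176 and 140.3 CPM in megakaryocyte- or platelet-like cells. Trpm3 had 10 and 7 UMIs in Schwann-like cells. Trpv2 was highest in plasmacytoid dendritic-like cells in library 1 and osteoclast-like cells in library 2, and Trpm7 in Schwann-like cells in library 1 and mature B-like cells in library 2.

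Of 8 polycystin relatives 3 were measured. Pkd1l2 was highest in monocyte-like cells at 22.1 and 17.8 CPM, Pkd1l3 in megakaryocyte- or platelet-like cells at 15.7 and 9.70 CPM, and Pkhd1l1 in erythroid-like cells at 103 and 81.1 CPM. None of 9 measured genes of polycystin folding and trafficking passed the 2-fold limit. Of 13 measured genes of the primary cilium 1 did, the motor subunit Kif3a in Schwann-like cells, with 9 and 13 UMIs. Mdfic, which binds Piezo channels and alters their gating, was highest in osteoclast-like cells at 196 and 217 CPM, and none of the 6 measured Piezo partners passed the 2-fold limit. Of 15 measured genes of the calcium response, Nfatc1, the transcription factor that drives osteoclast formation, was the 1 gene past the 2-fold limit, at 952 and 535 CPM in osteoclast-like cells.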

How the data were processed

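The deposited files give raw UMI counts by gene and barcode for 2 alveolar bone libraries, made with the GEXSCOPE single-cell system, per the labels. Tissue was digested for 60 min and red cells were lysed, per the labels' protocols. FastQC 0.11.9 and the builds GRCh38 and mm10 appear in the submitters' processing notes, with no role stated. Aligner, annotation and strand use: not given in the sources used here. UMIs of named genes numbered 77572847 and 116775367 in libraries 1 and 2, of which 64.8% and 67.5% lay in called cells, and features without a symbol, left out, held 0.602% and 0.431% of UMIs.

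A barcode was called a cell at or above the inflection of the barcode rank curve (767 and 886 UMIs), with at least 200 genes and at most 20% mitochondrial UMIs, which left 10001 and 12627. A Scrublet-type score marked 1 cell per library automatically, so the call had not worked, and the 5% with the highest scores were removed (500 and 631). Doublets may remain. Both libraries were clustered together in scanpy 1.11.5, with 10000 counts per cell on a log scale, 2000 variable genes without the members and related lists, 30 principal components, 15 neighbours and Leiden resolution 1.0, which gave 23 clusters. Names came from 30 marker lists: the best list named a cluster when 3 or more of its markers, and 50% or more of them, were raised 3-fold or over, unless the 10 leading genes held more of another list. Endothelial-like and stromal cells were clustered again at resolution 0.5. The members, lists and naming limits were chosen with earlier results of these data known.

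Summed UMIs of each class and library were scaled to CPM with exact Poisson intervals. Exact Clopper-Pearson intervals go with shares of cells, and ratios of levels have exact conditional binomial intervals, all at 95% and for counting error only. Only classes of 30 or more cells in each library were ranked. Cells were also thinned to 1000 UMIs each, which kept 20631 of 21497 cells. Related genes are named where they exceeded every other class at least 2-fold in each library, or where they are the closest relatives of the members. The step that finds the highest class was checked on simulated counts. The promoter of Piezo2 is not shown, and a few genes that these rules name are not reported here.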

Additional observations from a re-analysis of the deposited data

How the results depend on the processing

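The levels in the leading classes and the highest class of each member were recomputed under 12 planned settings and, as choices added after seeing the data, with 2 other clustering seeds. Of the planned settings, the one that ranked classes of 10 or more cells could change nothing, since all 20 classes were already ranked. The arterial ratios were recomputed at 2 other sub-cluster resolutions and with another choice of arterial-like cells. Cells with 2 members, the stromal sub-clusters, the split of the fibroblast clusters, likeness and related genes were not recomputed. Piezo2 was highest in endothelial-like cells of both libraries in all 14 settings of the whole tissue, with a lead over the next class between 3.71 and 9.30 in library 1 and between 1.95 and 19.1 in library 2. At resolution 2.0 the lead in library 2 was the lowest, and the number of members that exceeded every other class at least 2-fold was 0. Trpv4 was highest in endothelial-like cells in 13 settings in library 1 and 12 in library 2, and with cells thinned to 1000 UMIs its level was 0.946 times that of the highest other class in library 1 and 0.729 times in library 2. The number of members with the same highest class was 2 in the main analysis. It was 4 with a minimum of 1500 UMIs per cell, with resolution 2.0 and with 15 principal components. It also lay above 2 with at most 10% mitochondrial UMIs, without doublet removal and at resolution 0.5. The same held for the mean over cells and for both other clustering seeds. The level of Piezo1 in fibroblast- or ligament-like cells ranged from 62.7 to 189 CPM in library 1 and from 72.8 to 128 CPM in library 2. It followed whether the cluster led by Apod and Igf1 took that name, which is why the report gives both clusters. The Piezo2 ratio of arterial-like to other endothelial-like cells in library 2 was 0 at sub-cluster resolutions 0.3 and 1.0. With cells chosen by 2 arterial markers, the Piezo2 ratio was 0.913 and 0.680 and the Trpv4 ratio was 1.63 and 2.01. By that choice the Pkd1 ratio in library 1 reversed, to 0.827, and the Pkd2 ratio was 0.707 and 0.679. The cause was not tested. No paired analysis was possible because the labels give neither library a group and each is 1 pool. Counts are small in rare classes, such as the 33 and 61 Schwann-like and the 44 and 32 osteoclast-like cells.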

Other observations

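A small stromal sub-cluster, led by Mmp3, Mfap4 and Cdr1os, was left out of the ranking because each library held under 30 of its cells. With 24 cells in library 1 and 14 in library 2, it had Piezo1 at 275 CPM (170.0 to 420) and 354 CPM (216 to 547) and Pkd2 at 144 CPM (71.8 to 257) and 213 CPM (110.0 to 371). Those ranges lie on 21 and 20 UMIs of Piezo1 and 11 and 12 of Pkd2, and the endothelial markers were all at 0 there.

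The single osteoblast-like cell of library 2 with 16 Piezo2 UMIs held 88.9% of that class's Piezo2 count, more UMIs than any endothelial-like cell of either library, whose highest were 11 and 7.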
